A study of Rattus norvegicus with 8 samples.

Results

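The genes described here encode the subunits of calcium, potassium, sodium and chloride channels, measured in the fetal rat testis after exposure to dibutyl phthalate (DBP), a plasticizer. They were chosen by symbol: every probe set with 1 gene symbol starting with Cacna, Cacnb, Cacng, Kcn, Scn or Clcn, or reading Ano and a number, was taken, and where a gene had several probe sets the one with the highest mean over the 8 arrays represented it. This gave 131 genes of 14217, from 207 probe sets of 31042. The rule itself uses symbols and mean signal and no measured change. The prefixes also caught Scnm1, which encodes a splicing factor and not a channel.

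Ion channels are membrane proteins that let selected ions pass when voltage, a ligand or intracellular calcium opens them. Pore-forming subunits carry the current, and auxiliary subunits set how many channels reach the membrane and how they open and close. In the testis, potassium and chloride channels set the membrane potential of steroidogenic cells, calcium entry takes part in their response to luteinizing hormone, and channels of smooth muscle, nerve and epithelium are present in the same organ.

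Both groups were testes of Fischer 344 male fetuses at gestational day 20. In the DBP group (4 samples) dams had received 50 mg/kg DBP once a day by gavage from gestational day 12 to day 20. In the vehicle group (4 samples) they had received corn oil, at 1 ml/kg, on the same days, and tissue was frozen 6 h after the last dose. Each sample was read on 1 Affymetrix rat expression array, and all values below are log2 signals made by RMA, the authors' background correction, normalization and summary of probes. Separate dams or litters are not named in the labels. The p-values therefore cover only the spread between the samples at hand, which may be technical, and precision is limited by the small number of arrays.

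The arrays had medians of 6.08 to 6.13, and the lowest correlation between any 2 of them was 0.9914. Testis genes were bright, with a mean log2 signal over all arrays of 12.64 for Amh, the Sertoli cell hormone, and 12.62 for Cyp17a1, an enzyme of androgen synthesis in Leydig cells. DBP replicates 3 and 4 stood apart from the other arrays. Their poly-A spike-ins, bacterial transcripts added before labelling, averaged 4.84 and 4.79, against 7.17 and 6.68 on DBP replicates 1 and 2 and 6.46 to 6.79 on the vehicle arrays. The log2 difference between the 3' and 5' Gapdh control probe sets, a sign of RNA or labelling quality, was 0.29 and 0.26 there, against 0.19 and 0.15 on DBP replicates 1 and 2 and 0.14 to 0.20 on the vehicle arrays. The SD of the array's signals was 2.19 and 2.18 there, against 2.23 to 2.25 on the other 6. For the genes that passed, changes are therefore also given for each pair of DBP arrays.

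Of the 131 channel genes, 4 changed at an adjusted p under 0.05 in limma, a linear model fitted to all 31042 probe sets, with the adjustment over all of them. Kcnh1, Cacna1h and Ano1 fell and Scn3b rose. The share, 3.05%, compares with 1.22% of all genes (0.598% higher and 0.626% lower after DBP). An unadjusted p under 0.05 was reached by 28 members, or 21.4%, against 19.1% of all genes; 19 of them were higher (background 11.3%) and 9 lower (background 7.84%). The groups did not overlap for 15 members, 11.5%, against 12.9% of all genes, so by these looser counts the channel genes lay near the background. The median log2 change, DBP minus vehicle, was 0.04 over the channel genes and 0.02 over all genes. Among the 127 members that did not pass, the changes lay between -0.35 and 0.36. In whole-organ RNA, fewer cells of a type and less RNA per cell cannot be told apart.

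Promoter sequence is shown for Kcnh1 and Ano1, whose RNA fell, to put the letters upstream of these genes beside the values. The promoters of Cacna1h, which also fell, and of Scn3b, which rose, are not shown. The 2 sequences therefore do not stand for all genes that passed. RefSeq promoters, 250 bases before to 50 after the start on build GRCr8, were found for 95 of the 131 genes. Kcnh1 lies on the plus strand at chr13:106252966-106253265 and Ano1 on the minus strand at chr1:209329289-209329588, and both are printed 5′ to 3′ in the direction of the gene. Capitals mark GGGCGG, the GC box letters bound by Sp1-family factors, or its reverse complement CCGCCC.
Kcnh1: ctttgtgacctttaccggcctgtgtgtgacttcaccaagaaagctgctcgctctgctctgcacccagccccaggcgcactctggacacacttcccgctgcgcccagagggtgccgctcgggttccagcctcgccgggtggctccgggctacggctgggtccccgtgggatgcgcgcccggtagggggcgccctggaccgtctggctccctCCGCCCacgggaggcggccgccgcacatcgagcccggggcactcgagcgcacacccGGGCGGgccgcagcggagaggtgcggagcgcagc
Ano1: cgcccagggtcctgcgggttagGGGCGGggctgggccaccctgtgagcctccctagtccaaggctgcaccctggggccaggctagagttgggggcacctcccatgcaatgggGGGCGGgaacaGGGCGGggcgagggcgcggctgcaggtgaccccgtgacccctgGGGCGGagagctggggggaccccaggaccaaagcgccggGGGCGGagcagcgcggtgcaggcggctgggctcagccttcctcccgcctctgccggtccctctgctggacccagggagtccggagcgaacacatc
GGGCGG was found 2 times in the Kcnh1 promoter, at positions -40 and 17 from the start, and 5 times in that of Ano1, at -228, -138, -127, -84 and -45. On either strand it occurred in 34.9% of all 27457 promoters and in 54.7% of the 95 channel promoters. The GC content was 72.7% for Kcnh1 and 73.7% for Ano1, against a median of 61.7% over the channel promoters and 52.3% over all promoters. TATAAA (14.3% of all promoters), CAAGGTCA, a letter pattern bound by steroidogenic factor 1 (1.48%), and TGACG, the core letters of cAMP response elements (22.0%), were not found on either strand in these 2 windows. CANNTG, the E-box letters (71.6% of all promoters), was found 0 times for Kcnh1 and 1 time for Ano1, at -105, and no match overlapped another. These matches describe the letters and not the binding of any factor.

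Among the 10 pore-forming subunits of voltage-gated calcium channels, 1 fell, 0 rose and the median change was 0.05. Cacna1h encodes a T-type channel, a kind that opens at small depolarizations. Its log2 signal was 7.01, 6.71, 6.64 and 7.11 on DBP replicates 1 to 4, against 7.51, 7.59, 7.62 and 7.86 on vehicle replicates 1 to 4. All DBP arrays lay below all vehicle arrays. The means were 6.87 ± 0.228 with DBP and 7.65 ± 0.151 with vehicle (SD, n = 4 each), a change of -0.78 ± 0.11 (SE; 95% interval -1.03 to -0.52; limma adjusted p = 0.0126). The second, dimmer Cacna1h probe set had 5.09, 4.98, 5.28 and 5.27 on the DBP arrays and 4.97, 4.94, 4.79 and 4.99 on the vehicle arrays, a change of 0.23 (limma adjusted p = 0.186), and averaged over both probe sets the change was -0.27 (adjusted p = 0.13). The fall of Cacna1h was therefore read by 1 of its 2 probe sets.

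The other T-type genes did not pass. Cacna1g had 7.15, 7.35, 7.03 and 7.29 with DBP, against 7.53, 7.45, 7.41 and 7.46 with vehicle, a change of -0.26 (limma adjusted p = 0.132). Its groups did not overlap, as for Cacna1h. Cacna1i, named after its values were seen, changed by 0.17 (adjusted p = 0.271) with overlapping groups. Of the L-type genes, which carry the long-lasting current of muscle, heart and endocrine cells, Cacna1f had a change of 0.26 (adjusted p = 0.236) and Cacna1c of -0.05 (adjusted p = 0.838). Cacna1d had 6.07, 6.34, 5.49 and 6.20 with DBP, against 6.19, 6.36, 6.39 and 6.48 with vehicle, a change of -0.33 ± 0.16 (SE; limma adjusted p = 0.295). DBP replicate 3 was the lowest array, and the groups overlapped. The other 2 Cacna1d probe sets had changes of 0.13 and 0.11.

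Of the 14 auxiliary calcium channel subunits, 0 passed and 2 had an unadjusted p under 0.05 in limma (14.3%, against 19.1% of all genes). The median change of the 14 was 0.06, with a range of -0.16 to 0.30. Cacnb1, a beta subunit that carries the pore to the membrane, had 5.53, 5.48, 5.74 and 5.78 with DBP, against 5.31, 5.39, 5.38 and 5.25 with vehicle, a change of 0.30 (limma adjusted p = 0.108). Its groups did not overlap, while its second probe set had a change of 0.04. Cacng8, a gamma subunit that in brain accompanies glutamate receptors, had a change of 0.26 (adjusted p = 0.266), and Cacna2d3, an alpha2delta subunit, of 0.22 (adjusted p = 0.292).

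The 31 voltage-gated potassium channel pore subunits formed the largest group by number. In limma 1 fell (3.23%, against 1.22% of all genes) and 0 rose. An unadjusted p under 0.05 in limma was reached by 8 (25.8%, against 19.1% of all genes), 4 in each direction. The median change was 0.07. Kcnh1 encodes an ether-à-go-go channel, a slowly activating potassium channel of neurons that is also found in dividing cells. It had 9.01, 9.13, 8.86 and 9.03 with DBP, against 9.43, 9.42, 9.52 and 9.48 with vehicle. The gap between the groups was wider than the range within either. The means were 9.01 ± 0.111 with DBP and 9.46 ± 0.046 with vehicle (SD, n = 4 each), a change of -0.46 ± 0.067 (SE; 95% interval -0.60 to -0.31; limma adjusted p = 0.0126), or 1.37-fold lower after DBP.

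Kcnc4, a fast-repolarizing channel, had 5.80, 5.89, 6.13 and 6.08 with DBP, against 5.58, 5.73, 5.72 and 5.65 with vehicle, a change of 0.31 (limma adjusted p = 0.11). The groups did not overlap, and the second probe set had a change of 0.11. Kcna2, a delayed rectifier of axons, had a change of -0.25 (adjusted p = 0.124) and of 0.14 in its second probe set. Kcnd3, an A-type channel named after its values were seen, was the only gene called in a probe set other than the representing one, among the 5 of 207 member probe sets that passed (1.07% of all probe sets did). In that probe set it had 5.85, 5.93, 5.63 and 5.61 with DBP, against 6.38, 6.23, 6.28 and 6.10 with vehicle, a change of -0.49 ± 0.089 (SE; limma adjusted p = 0.0317). Its brighter probe set had a change of -0.26 (adjusted p = 0.214) and its dimmest of 0.20 (adjusted p = 0.276), so the 3 probe sets did not share a direction.

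Of the 15 inward rectifiers, which hold the resting potential, 0 passed, and the changes lay between -0.14 and 0.18. In limma 1 had an unadjusted p under 0.05 (6.67%, against 19.1% of all genes). Kcnj8, the pore of ATP-sensitive channels in vascular smooth muscle, had a change of 0.18 (limma adjusted p = 0.254), while Kcnj1, of kidney epithelium, and Kcnj9, of G protein-gated channels, had 0.09 each (adjusted p = 0.452 and 0.466). Of the 11 tandem-pore potassium channels, which carry background leak currents, 0 passed, and the median was 0.09. In limma 2 had an unadjusted p under 0.05 (18.2%, against 19.1% of all genes). Kcnk1 had a change of 0.23 (adjusted p = 0.232) and Kcnk5 of 0.16 (adjusted p = 0.268). Kcnk3, the acid-sensitive leak channel TASK of the adrenal and other organs, had 0.15 (adjusted p = 0.304), with 0.22 and -0.02 in its other probe sets.

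Among the 5 potassium channels opened by calcium or sodium, 0 passed. In limma 2 had an unadjusted p under 0.05 (40.0%, against 19.1% of all genes). Kcnt1, a sodium-activated channel, came nearest to the threshold of all members: 7.46, 7.71, 7.47 and 7.56 with DBP, against 7.92, 8.0, 7.81 and 7.88 with vehicle, a change of -0.35 ± 0.072 (SE; limma adjusted p = 0.0516). The groups did not overlap there, nor in the second probe set (-0.40; adjusted p = 0.0935), while the third, dimmest one had 0.09. Kcnn3, a small-conductance channel, had a change of 0.16 (adjusted p = 0.204). Kcnma1, the large-conductance channel of smooth muscle and nerve, had -0.20 (adjusted p = 0.379), with 0.13 and 0.09 in its other probe sets.

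Of the 13 auxiliary potassium channel subunits 0 passed, and 5 had an unadjusted p under 0.05 in limma (38.5%, against 19.1% of all genes). All 5 had changes above 0, and the median of the 13 was 0.08. Kcnab1 and Kcnip2, the latter named after its values were seen, were among these 5, with mean log2 signals of 4.62 and 4.70. The others were brighter: Kcne1 at 9.225, Kcnip3 at 7.16 and Kcnmb4, named after its values were seen, at 7.89. Of all genes at 5 or below, 515 had an unadjusted p under 0.05 in limma, and 475 of these were higher. Of all genes above 5, 2201 did, and 1126 of these were higher. Kcne1, a small membrane protein that slows the opening of its partner channels, had 9.44, 9.05, 9.65 and 9.48 with DBP, against 9.14, 9.06, 8.97 and 9.01 with vehicle, a change of 0.36 ± 0.11 (SE; limma adjusted p = 0.148). DBP replicate 2 lay among the vehicle arrays and the other 3 above them. Kcnab1, a beta subunit, had a change of 0.23 (adjusted p = 0.183; second probe set -0.11). Kcnip3, a calcium-binding partner of A-type channels, had 0.21 (adjusted p = 0.197; second probe set 0.15).

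The 9 pore-forming subunits of voltage-gated sodium channels showed 0 calls in limma, a median change of 0.01 and a range of -0.04 to 0.18. In limma 1 had an unadjusted p under 0.05 (11.1%, against 19.1% of all genes). Scn10a, of sensory neurons, had 0.18 (limma adjusted p = 0.372), Scn2a, of brain neurons, 0.17 (adjusted p = 0.252), and Scn4a, of skeletal muscle, 0.08 (adjusted p = 0.684). The 3 beta subunits, single-span proteins that bind the pore and adhere to other cells, did not share a direction. Of these, 1 rose in limma (33.3%, against 1.22% of all genes). An unadjusted p under 0.05 in limma was reached by 2 (66.7%, against 19.1% of all genes). The groups did not overlap for 2 (66.7%, against 12.9% of all genes). Scn3b had 6.98, 6.87, 6.82 and 7.55 with DBP, against 6.36, 6.40, 6.34 and 6.31 with vehicle. All DBP arrays lay above all vehicle arrays, with DBP replicate 4 highest. The change was 0.70 ± 0.14 (SE; 95% interval 0.40 to 1.01; limma adjusted p = 0.0434), and without DBP replicate 4 it was 0.54. In its second probe set, Scn3b had 5.53, 5.56, 5.22 and 6.02 with DBP, against 5.17, 4.87, 4.94 and 4.95 with vehicle, again without overlap (change 0.60; adjusted p = 0.083).

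Scn4b had 8.43, 8.54, 8.52 and 8.28 with DBP, against 8.70, 8.79, 8.81 and 8.74 with vehicle, a change of -0.32 ± 0.069 (SE; limma adjusted p = 0.0629). Its groups did not overlap, and the direction was opposite to that of Scn3b. Scn2b had a change of -0.20 (adjusted p = 0.29) with overlapping groups. Of the 3 epithelial sodium channel subunits, which absorb sodium across kidney and airway epithelium, 0 passed. In limma 0 had an unadjusted p under 0.05, against 19.1% of all genes. Scnn1g had 0.14 (adjusted p = 0.443), Scnn1b 0.09 (0.552) and Scnn1a -0.01 (0.943).

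**Figure D1:**
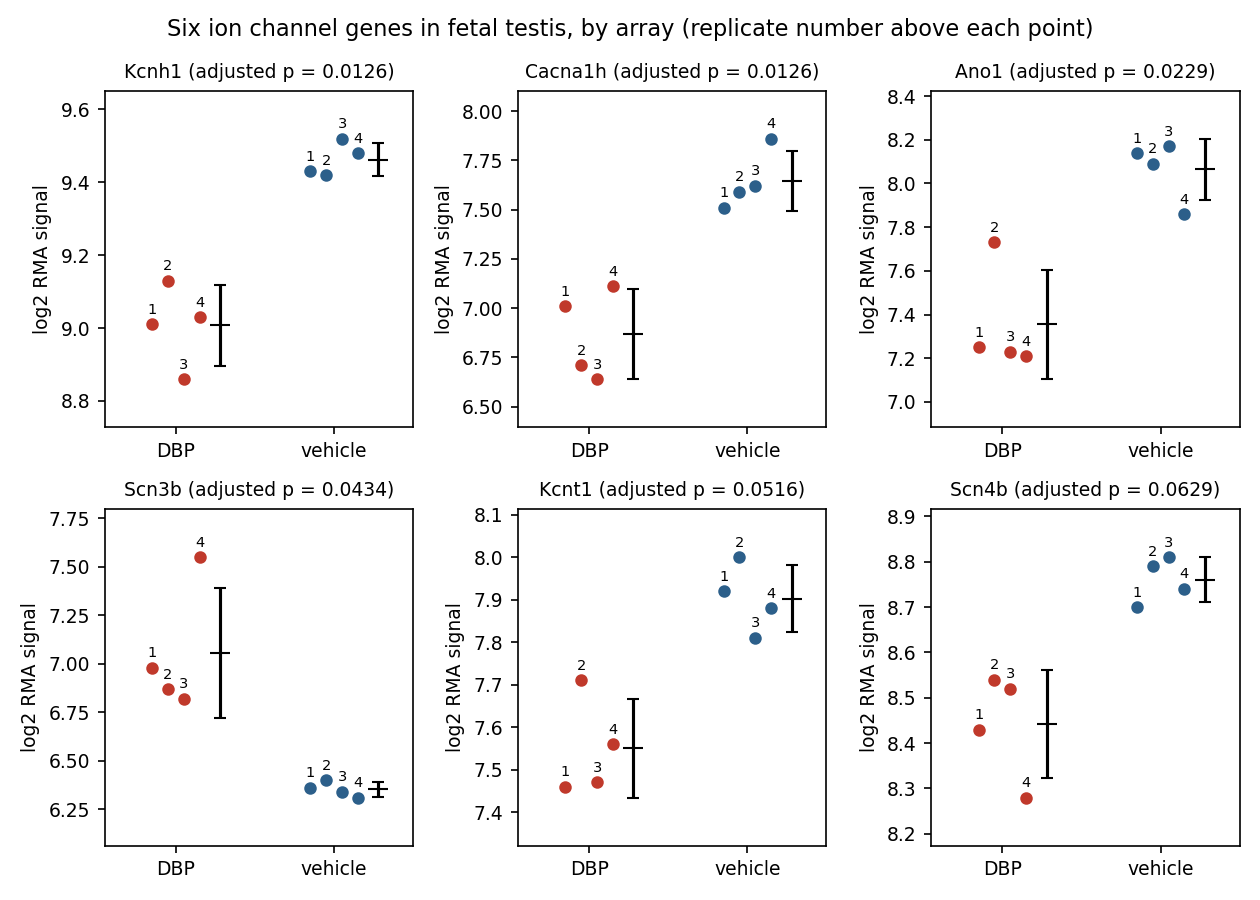
Log2 RMA signal of Kcnh1, Cacna1h, Ano1, Scn3b, Kcnt1 and Scn4b on each array, DBP left and vehicle right, with the replicate number above each point and the mean ± SD as a black bar. These are the 6 channel genes with the smallest unadjusted p in limma. That the DBP and vehicle arrays do not overlap in all 6 panels therefore follows largely from that choice. The groups did not overlap for 11.5% of the channel genes and 12.9% of all genes. Kcnt1 (adjusted p = 0.0516) and Scn4b (0.0629) did not pass.

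Of the 7 CLC chloride channels and transporters 0 passed, and 0 had an unadjusted p under 0.05 in limma, against 19.1% of all genes. The range was -0.12 to 0.15. Clcn4 and Clcn5, chloride-proton exchangers of endosomes, had changes of 0.15 (limma adjusted p = 0.292) and -0.12 (0.367). Clcn3, an endosomal exchanger too, had -0.11 (0.514), and its other 3 probe sets had -0.24, -0.19 and -0.02. Clcn2, a plasma membrane channel opened by hyperpolarization, had -0.02 (0.867).

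Among the 9 anoctamins, a family of calcium-activated chloride channels and lipid scramblases, 1 fell in limma (11.1%, against 1.22% of all genes). The other 8 had changes between -0.11 and 0.12. At an unadjusted p under 0.05 in limma there was 1 (11.1%, against 19.1% of all genes). Ano1 is the calcium-activated chloride channel of smooth muscle, secretory epithelium and pacemaker cells of the gut. It had 7.25, 7.73, 7.23 and 7.21 with DBP, against 8.14, 8.09, 8.17 and 7.86 with vehicle. DBP replicate 2 was the highest of its group and still lay below the lowest vehicle array. The change was -0.71 ± 0.12 (SE; 95% interval -0.97 to -0.45; limma adjusted p = 0.0229), or 1.64-fold lower after DBP. Ano9 had a change of 0.12 (adjusted p = 0.453), Ano5, known from muscle disease, 0.09 (0.489), and Ano6, a scramblase of platelets, -0.02 (0.907). Scnm1 had a change of 0.02 (0.891).

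**Figure D2:**
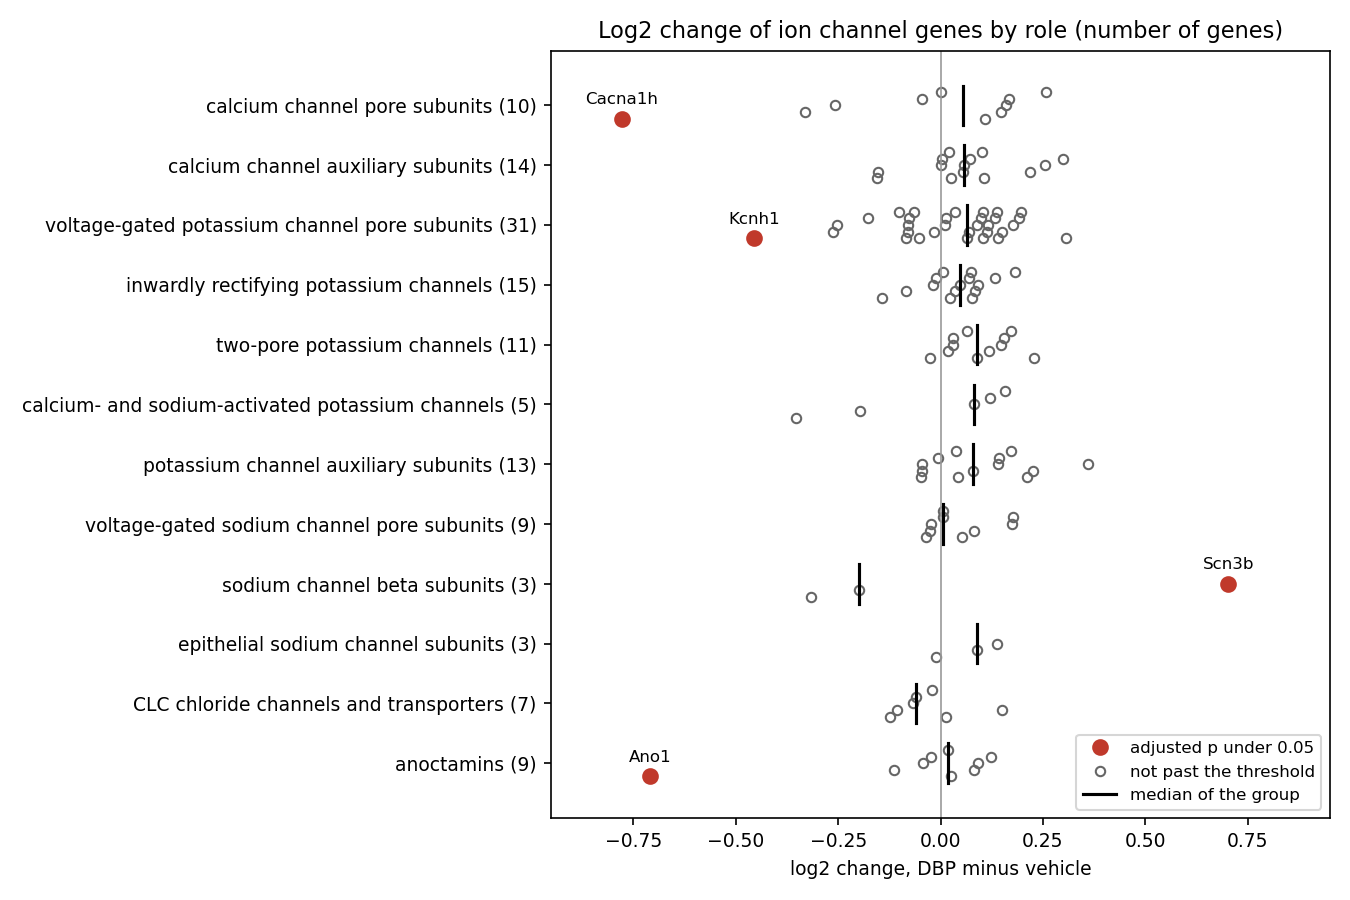
Log2 change, DBP minus vehicle, of 130 of the 131 genes (Scnm1 is left out), grouped by role with the number of genes in brackets. Filled points passed an adjusted p under 0.05 and black lines are group medians. Cacna1h, Ano1 and Kcnh1 lie left of 0 and Scn3b right of it, and the other points lie between -0.35 and 0.36.

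Most channel genes had dim probe sets, so their small changes were measured at low signal. At a mean log2 signal of 5 or below there were 76 members, with 0 calls in limma and a median change of 0.07, against 15 calls (0.497%) and a median of 0.09 for the 3021 genes of that signal. At that background share, 0 calls among 76 is not a result about the members. Above 5 there were 55 members, with 4 calls (7.27%) and a median of 0.01, against 1.42% called and a median of 0.00 for the 11196 genes of that signal. An unadjusted p under 0.05 in limma was reached by 30.9% of the bright members, against 19.7% of all genes of that signal. For the dim members this share was 14.5%, against 17.0%. The groups did not overlap for 20.0% of the bright members, against 14.0%, and for 5.26% of the dim members, against 8.74%. On DBP replicates 1 to 4 the 76 dim members lay a median of 0.06, 0.02, 0.07 and 0.08 above the vehicle mean, and the 3021 dim genes 0.05, 0.02, 0.12 and 0.13.

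**Figure D3:**
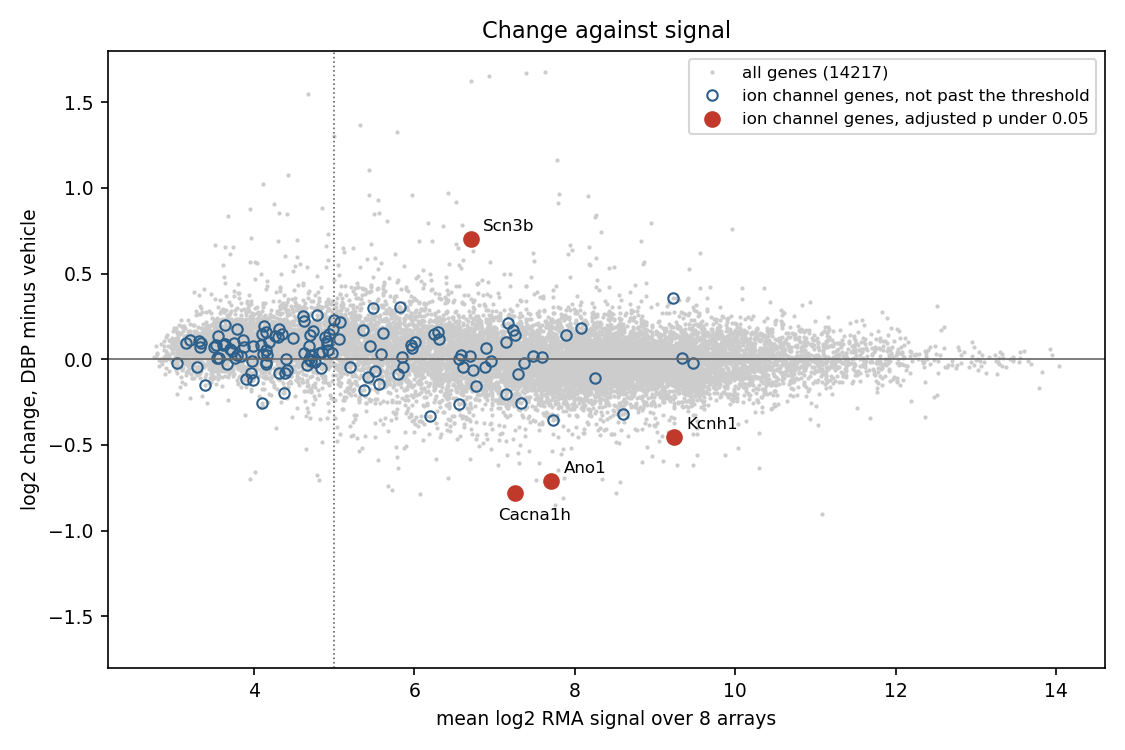
Log2 change, DBP minus vehicle, against the mean log2 RMA signal over 8 arrays for all 14217 genes (grey) and the channel genes (open circles, filled where the adjusted p was under 0.05). The dotted line marks a signal of 5, and all 4 filled points lie to its right.

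Probe sets of the same gene did not always share a direction. Of the 49 channel genes with more than 1 probe set, 24 had all of them on the same side of 0 and 25 did not. The plot of 7 such genes shows Scn3b above 0 in both probe sets, and Cacna1h, Kcnd3 and Kcnt1 with a probe set on each side. Which transcripts each probe set reads was not tested.

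**Figure D4:**
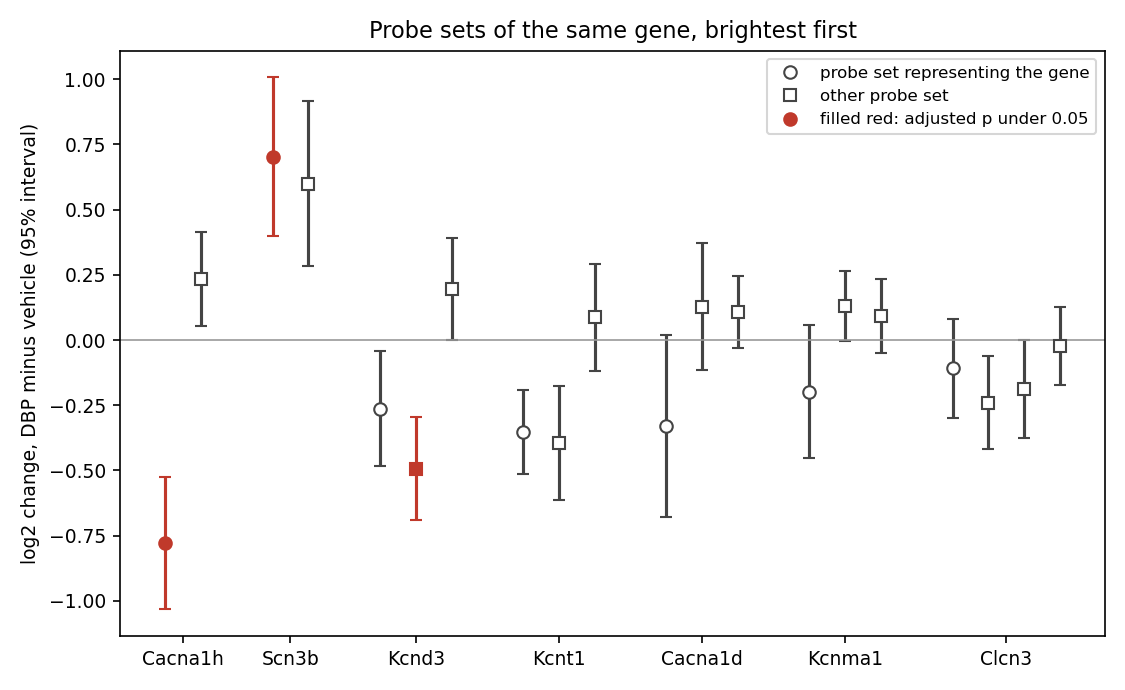
Log2 change, DBP minus vehicle, with its 95% interval for each probe set of 7 genes, brightest first within a gene, circles for the representing probe set and squares for the others. Filled red symbols passed an adjusted p under 0.05: the representing probe sets of Cacna1h and Scn3b and 1 other of Kcnd3.

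In the arrays with usual spike-in signal, DBP replicates 1 and 2, the change against vehicle was -0.39 for Kcnh1 (limma adjusted p = 0.0241) and -0.79 for Cacna1h (0.0171). It was -0.57 for Ano1 (0.0774) and 0.57 for Scn3b (0.0059). In DBP replicates 3 and 4 it was -0.52 for Kcnh1 (0.0082), -0.77 for Cacna1h (0.0158), -0.84 for Ano1 (0.0055) and 0.83 for Scn3b (0.0201). All 4 genes thus kept their direction in each pair, and Ano1 alone of them did not pass in the first. Kcnd3, in the probe set that passed, had -0.36 with DBP replicates 1 and 2 (0.0728) and -0.63 with DBP replicates 3 and 4 (0.0074). Of the 131 members, 3 passed with the first pair and 23 with the second. Over all genes 1.67% passed with DBP replicates 1 and 2 and 12.8% with DBP replicates 3 and 4; the second share is the background for calls in that pair. A spike-in term was also fitted, which marks DBP replicates 3 and 4 as the arrays of low spike-in signal. By its form it gives the same change as DBP replicates 1 and 2, so it is not a further test. With that term the limma adjusted p was 0.0403 for Kcnh1, 0.0373 for Cacna1h, 0.0688 for Ano1 and 0.13 for Scn3b.

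**Figure D5:**
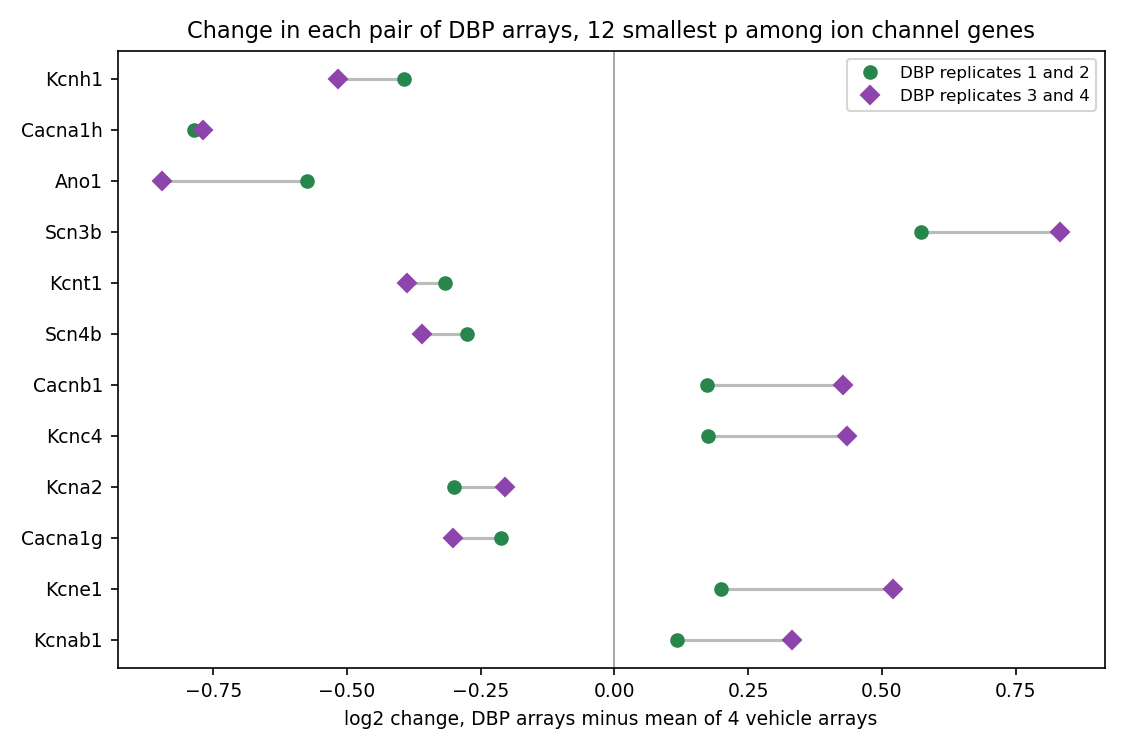
Log2 change against the mean of 4 vehicle arrays for the 12 channel genes with the smallest unadjusted p, in DBP replicates 1 and 2 (green circles) and DBP replicates 3 and 4 (purple diamonds). Kcnc4, Cacnb1 and Kcne1 lie farther from 0 in the second pair, at 0.44, 0.43 and 0.52, than in the first, at 0.18, 0.17 and 0.20, while Cacna1h lies at -0.79 and -0.77.

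Each array was also left out in turn. Such a fit has fewer arrays, so a lost call need not mean that the call rested on the array left out. Kcnh1 passed in limma without any 1 of the 8 arrays except vehicle replicate 3 (adjusted p = 0.0624) or vehicle replicate 4 (0.0539), and Cacna1h except vehicle replicate 3 (0.0545). Ano1 did not pass without DBP replicate 1 (0.0611) or DBP replicate 3 (0.0704), nor without vehicle replicate 1 (0.0892), vehicle replicate 2 (0.074) or vehicle replicate 3 (0.099). Scn3b passed only without DBP replicate 2 or DBP replicate 4; its adjusted p was 0.0773 without DBP replicate 1, 0.0523 without DBP replicate 3, and 0.127, 0.101, 0.14 and 0.121 without vehicle replicates 1 to 4. In all of these fits the direction stayed the same, with changes of -0.50 to -0.41 for Kcnh1, -0.86 to -0.70 for Cacna1h, -0.83 to -0.66 for Ano1 and 0.54 to 0.78 for Scn3b.

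Channels work beside pumps, exchangers and other pores that the symbols above do not catch. Of 84 such genes listed by function, 72 were measured, 0 rose and 2 fell in limma (2.78%, against 1.22% of all genes), and the median change was 0.01. At an unadjusted p under 0.05 in limma there were 19 (26.4%, against 19.1% of all genes). Of these, 10 were higher and 9 lower (backgrounds 11.3% and 7.84%). They were 13 of 33 chloride and cation transport genes (39.4%) and 6 of 39 calcium handling genes (15.4%). The groups did not overlap for 8 (24.2%) and 2 (5.13%) of these lists, against 12.9% of all genes. Ttyh2, of the tweety family of membrane proteins, had 8.89, 8.98, 8.96 and 8.99 with DBP, against 9.29, 9.47, 9.42 and 9.34 with vehicle, a change of -0.43 ± 0.06 (SE; limma adjusted p = 0.0108). Slc12a7, which moves potassium and chloride out of cells together, had 8.44, 8.50, 8.17 and 8.38 with DBP, against 8.74, 8.80, 8.87 and 8.74 with vehicle, a change of -0.42 ± 0.077 (SE; limma adjusted p = 0.0343). The groups overlapped for neither gene. Averaged over its probe sets, the change of Slc12a7 was -0.21 (adjusted p = 0.127). Atp2b3, a plasma membrane calcium pump, had a change of -0.49 (adjusted p = 0.0516), and its groups did not overlap. Averaged over its probe sets Atp2b3 passed, as it did with a filter on signal, a trend and robust prior or array weights. It did not pass with quantile normalization, the replicate block or the RNA integrity number. With DBP replicates 1 and 2 the change was -0.45 for Ttyh2 (limma adjusted p = 0.0219) and -0.32 for Slc12a7 (0.0451), and with DBP replicates 3 and 4 it was -0.41 for Ttyh2 (0.0151) and -0.51 for Slc12a7 (0.011). Ttyh2 did not pass without vehicle replicate 3 (0.0567). Slc12a7 did not pass without DBP replicate 1 (0.058), DBP replicate 4 (0.0519) or any 1 of the vehicle arrays (0.0915 to 0.133).

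Marker lists of the cell types that could carry these channels were measured on the same arrays. The summed log2 level of 11 smooth muscle and myoid genes was 12.79 to 13.10 with DBP and 12.66 to 12.98 with vehicle, and that of 15 neuron and Schwann cell genes was 10.12 to 10.34 with DBP and 10.17 to 10.22 with vehicle. For both lists the sums overlapped between the groups and 0 genes passed in limma. At an unadjusted p under 0.05 in limma there were 3 (27.3%) and 4 genes (26.7%), against 19.1% of all genes. The 4 neuron and Schwann cell genes went both ways, with changes of 0.265 (Th), 0.22 (Dbh), -0.27 (S100b) and -0.335 (Chga). The groups did not overlap for 0 smooth muscle and myoid genes and 1 neuron and Schwann cell gene (6.67%), Th, against 12.9% of all genes. The 9 Leydig cell genes summed to 14.58 to 14.77 with DBP and 14.66 to 14.73 with vehicle, and the 8 Sertoli cell genes to 14.02 to 14.21 with DBP and 14.05 to 14.13 with vehicle, with overlapping sums and 0 genes passing in limma. These sums are weighted to the brightest genes. At an unadjusted p under 0.05 there were 4 of the 9 Leydig cell genes (44.4%) and 4 of the 8 Sertoli cell genes (50.0%), against 19.1% of all genes. The groups did not overlap for 4 Leydig cell genes (44.4%) and 3 Sertoli cell genes (37.5%), against 12.9% of all genes. DBP arrays were all below vehicle arrays for Insl3 (change -0.34; limma adjusted p = 0.0732), Vsnl1 (-0.70; 0.0888) and Lhcgr (-0.21; 0.17) and all above for Hsd3b1 (0.17; 0.163). Among Sertoli cell genes, they were all below for Inhbb (-0.35; limma adjusted p = 0.0614) and all above for Aard (0.24; 0.108) and Clu (0.25; 0.266). The 7 endothelial genes lay at 11.01 to 11.08 with DBP and 10.95 to 10.997 with vehicle, with Plvap higher (0.36; limma adjusted p = 0.0473), and the 3 adrenal genes at 7.30 to 7.76 with DBP and 8.01 to 8.11 with vehicle, with Mrap, an accessory protein of the ACTH receptor, lower (-0.61; adjusted p = 0.0289). The sums of those 2 lists did not overlap between the groups. In the endothelial list only Plvap was separated. Its other genes overlapped between the groups, with changes of -0.13 (Kdr) to 0.09 (Emcn), and Kdr and Tek lay below 0. In the adrenal list only Mrap was separated: Cyp11b1 had a change of -0.09 (limma adjusted p = 0.851) and Cyp21a1 of 0.03 (0.892), both with overlapping groups. The part of these markers in the channel results was not tested. The sums of 4 germ cell, 6 erythroid, 10 macrophage and 6 mesonephric duct genes overlapped between the groups, with 0 genes passing in limma. The germ cell sums barely did, at 10.051 to 10.277 with DBP and 9.870 to 10.052 with vehicle. At an unadjusted p under 0.05 in limma there were 2 (50.0%), 1 (16.7%), 3 (30.0%) and 3 (50.0%), against 19.1% of all genes. The groups did not overlap for 0, 1 (16.7%), 2 (20.0%) and 0 genes, against 12.9% of all genes. Those were Hba-a3, Fcer1g and Cd74, all higher after DBP. Over all 4 DBP arrays, changes were above 0 for 6 of 6 erythroid and 9 of 10 macrophage genes, against 8051 of all 14217 genes. The erythroid changes differed between the pairs of DBP arrays. For Slc4a1, Alas2, Hemgn, Epb42, Hba-a3 and Hbb they were 1.26, 0.70, 0.63, 0.48, 0.32 and 0.15 with DBP replicates 1 and 2. With DBP replicates 3 and 4 they were, in the same order, -0.35, -0.15, 0.0025, -0.29, 0.235 and -0.02.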

How the data were processed

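Fetal testis RNA of 4 DBP and 4 vehicle samples had been read on Affymetrix rat arrays, 1 array per sample. Per the submitters' processing notes the authors used RMA (its version is not given in the sources), and the deposited log2 signals are its output. RMA scales arrays to each other and compresses differences of dim probe sets. Of 31099 probe sets, 57 controls were set aside. By the platform's gene annotation, 20826 of the rest had 1 gene symbol, 436 several and 9780 none; only the first kind was named. All 131 members matched a RefSeq symbol. 0 pairs of arrays were identical.

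Groups were compared with limma 3.58.1 in R 4.3.3 (lmFit, then eBayes at its defaults, 2-sided). P-values were adjusted by Benjamini and Hochberg's method over 31042 probe sets, and the threshold was 0.05. The fit was tested on simulated data. Python 3.11.15, pandas 2.3.3 and matplotlib 3.10.9 were used for tables and figures. The members, gene lists and tests were chosen with earlier results of these data known. Named members are those past the threshold, the up to 3 with the smallest p in each role group, and 10 fixed ones (Cacna1c, Cacna1d, Cacna1g, Cacna1h, Kcnma1, Kcnk3, Clcn2, Clcn3, Ano1 and Ano6); of the related genes, those past the threshold and the 3 with the smallest p. Alternatives were filters on signal, scalings, a trend and robust prior, the replicate block, RNA integrity number and spike-in terms, array weights, pairs of DBP arrays, handling of probe sets, unmoderated statistics, thresholds and leaving out each array. Marker sums are log2 of summed linear signals.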

Additional observations from a re-analysis of the deposited data

Results flagged for a closer look

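Of 88 groups of 4 arrays of the named genes, 5 held an array far from the other 3 by Dixon's test, which by chance picks about 1 in 20 groups. Ano1 on DBP replicate 2 had a log2 signal of 7.73, with the other DBP arrays at 7.21 to 7.25, and without it the change was -0.83. Kcnj9 on DBP replicate 1 had 3.79, against at most 3.63 on the other DBP arrays. Scn2a on DBP replicate 4 had 4.04, against at most 3.84. Kcnma1 on vehicle replicate 4 had 4.66, with 4.41 to 4.42 on the other vehicle arrays, and Ano5 on vehicle replicate 2 had 3.15, with 3.34 to 3.35 on the others.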

How the results depend on the processing

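The 4 channel calls became 2 with the replicate block (Cacna1h and Ano1), 2 with a spike-in term, 2 with the mean over probe sets, 0 at an adjusted p under 0.01, 0 with unmoderated statistics (20 at an unadjusted p under 0.05) and 23 with DBP replicates 3 and 4 alone; without 1 array they ranged from 0 (without vehicle replicate 3) to 7 (without DBP replicate 2). The 2 related genes became 1 with the replicate block, the RNA integrity number, the spike-in term or unmoderated statistics, 4 at an adjusted p under 0.1, 0 under 0.01 and 17 with DBP replicates 3 and 4; without 1 array they ranged from 0 (without vehicle replicate 3) to 3. Other counts stayed within 1.5 times, and the causes were not tested. Under the replicate block the limma adjusted p was 0.0541 for Kcnh1, 0.0199 for Cacna1h, 0.0352 for Ano1 and 0.0648 for Scn3b. Deviations of same-numbered samples correlated at 0.108, -0.076, 0.097 and -0.021, and those of differently numbered samples at -0.186 to 0.173. The labels give the numbers no meaning. With 4 arrays per group these correlations cannot decide whether the numbers mark a pairing. With the RNA integrity number Scn3b had an adjusted p of 0.0733. Of 1055 alternative values of 44 named genes, 935 kept direction and side of the threshold, 44 lost and 38 gained a call, and 38 changed sign, in 9 genes that were not called. With DBP replicates 1 and 2, and equally with the spike-in term, the log2 change was 0.0325 for Ano6, 0.10 for Cacna1c, 0.0425 for Clcn3, 0.005 for Kcnma1, -0.0075 for Scn4a, -0.005 for Scnm1, 0.015 for Scnn1a and -0.015 for Scnn1g; Clcn2 had 0.0125 with DBP replicates 3 and 4. With the RNA integrity number it was 0.045 for Ano6, 0.06 for Cacna1c, -0.0175 for Scnm1 and 0.023 for Scnn1a. Shifted medians gave 0.0025 for Clcn2 and 0.0125 for Scnn1a, and quantile normalization 0.0016 for Ano6 and 0.022 for Clcn2. The mean over probe sets gave 0.019 for Cacna1c, 0.0083 for Kcnma1 and 0.076 for Scnn1a, and the probe set with the smallest p gave 0.083 for Cacna1c, 0.13 for Kcnma1 and 0.16 for Scnn1a. Without 1 array, Ano6 ranged from -0.099 to 0.0275, Cacna1c from -0.13 to 0.057, Clcn2 from -0.036 to 0.0042, Scnm1 from -0.038 to 0.065 and Scnn1a from -0.045 to 0.022. Signal near background limits the 76 dim members.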

Other observations

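Calcium pumps of the plasma membrane, which remove the calcium that channels let in, did not pass in the main limma fit, though Atp2b3 passed in some alternatives. Atp2b1, named after its values were seen, had 10.08, 9.98, 10.11 and 10.12 with DBP, against 10.28, 10.25, 10.27 and 10.32 with vehicle (change -0.21; adjusted p = 0.111), without overlap. Atp2b4, also named after its values were seen, had 5.78, 6.05, 4.62 and 4.77 with DBP, against 5.97, 5.72, 6.21 and 6.27 with vehicle (change -0.74; adjusted p = 0.231). Its 2 low values were on DBP replicates 3 and 4, the arrays with low spike-in signal. Against vehicle, the change of Atp2b4 was -0.13 with DBP replicates 1 and 2 (limma adjusted p = 0.743) and -1.35 with DBP replicates 3 and 4 (0.0055). The spike-in term gives, by its form, the same -0.13 as DBP replicates 1 and 2 (limma adjusted p = 0.803).

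Scn11a, a sodium channel gene known from sensory neurons, had a mean log2 signal of 9.34 over the 8 arrays and a change of 0.01, and was named after its values were seen.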
